A study of Homo sapiens with 9 samples.

Results

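The 41 genes described here encode keratins, tight junction and desmosome proteins, transcription factors and splicing regulators of epithelial identity, and surface, protease and trafficking proteins of epithelial cells. They were taken by symbol from a given list, and where a symbol was on several rows the row with the highest mean was used. Of the 41 genes, 39 had a row among the 27548 rows of the expression table. KRT5 and KRT6A, basal keratins, are not analysed here. RNA was sequenced in 3 groups of 3 libraries, all labelled as MDA-MB-231, a triple-negative breast cancer line of mesenchymal appearance. TLX+siTLX cells overexpressed the nuclear receptor TLX (gene NR2E1) and received an siRNA against TLX (libraries S7 to S9). TLX+siCTL cells overexpressed TLX and received a control siRNA (S4 to S6), and CTL+siCTL were control cells that received the control siRNA (S1 to S3). Transfection with DharmaFECT 4 lasted 48 h in all groups. How TLX was overexpressed, whether the overexpressing cells are 1 clone and the siRNA sequences are not stated in the sources used here. The titles of the control samples also hold PC3, the name of a prostate cancer line, without an explanation, so differences from CTL+siCTL that come from TLX and from any other difference between the cell stocks cannot be told apart. No label says that the replicates were grown as separate cultures, so p-values measure only how far these samples spread, and that spread may be technical.

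Keratins form the intermediate filaments of epithelial cells, and the simple keratins KRT8 and KRT18 pair with each other. Tight junctions seal the space between cells through claudins and occludin, while desmosomes tie the filaments of neighbouring cells together through desmoplakin, plakophilins and plakoglobin. The Grainyhead, OVOL and epithelial ETS factors (ELF3, EHF, SPDEF) maintain this program, and ZEB and SNAI repressors act on it through E-box elements during epithelial to mesenchymal transition.

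The effective library sizes lay between 73.9 and 91.8 M reads. Replicates of TLX+siTLX stood furthest apart, with a median absolute log2 difference of 0.0940 to 0.147 over 12564 rows, against 0.0741 to 0.0763 in TLX+siCTL and 0.0620 to 0.0795 in CTL+siCTL. NR2E1 had -2.61, -3.40 and -1.77 log2 CPM in TLX+siTLX, 0.28, -0.84 and 0.23 in TLX+siCTL, and -4.59, -4.28 and -4.50 in CTL+siCTL, where CPM is the count scaled to library size. The 3 groups did not overlap, and the order of NR2E1 follows the labels. These levels rest on few estimated reads. NR2E1 held about 11.3, 5.35 and 23.4 in TLX+siTLX, 109, 42.0 and 91.5 in TLX+siCTL, and 1.35, 2.02 and 1.43 in CTL+siCTL. By limma it remained 1.86 ± 0.47 (SE, adjusted p = 0.0134) higher in TLX+siTLX than in CTL+siCTL on the log2 scale. As markers of the line, ESR1 was at -2.88 to -1.78 log2 CPM over the 9 libraries and VIM at 10.00 to 10.82. ESR1 does not stand for its list, since 5 of 11 luminal breast markers had a mean of at least 1. Of 10 mesenchymal markers, 7 had such a mean. Of 8 prostate markers, 4 had a mean under -3, among them KLK3 and HOXB13, and 3 had a mean of at least 1. The summed level of the 8 was 50.8 to 55.2 CPM in TLX+siTLX, 49.3 to 51.5 in TLX+siCTL and 48.6 to 50.6 in CTL+siCTL. Whether the control cells are of another line was not tested.

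The promoters of 4 genes are shown first because these genes, SPINT1, OCLN, ELF3 and SPDEF, had large differences between TLX+siCTL and CTL+siCTL, and their windows hold motifs of the families named above. Being picked on both grounds, they cannot show a link between motif and difference. CLDN1, which also fell, has a window with no match and is not shown. Each window runs from 250 bases before to 50 bases after a RefSeq start site (GRCh38.p14), is written 5′ to 3′ on the strand of the gene, and has in capitals every match to a searched motif on either strand. SPINT1 is at chr15:40844227-40844526 (plus strand), OCLN at chr5:69492297-69492596 (plus), ELF3 at chr1:202010337-202010636 (plus) and SPDEF at chr6:34556280-34556579 (minus).
SPINT1: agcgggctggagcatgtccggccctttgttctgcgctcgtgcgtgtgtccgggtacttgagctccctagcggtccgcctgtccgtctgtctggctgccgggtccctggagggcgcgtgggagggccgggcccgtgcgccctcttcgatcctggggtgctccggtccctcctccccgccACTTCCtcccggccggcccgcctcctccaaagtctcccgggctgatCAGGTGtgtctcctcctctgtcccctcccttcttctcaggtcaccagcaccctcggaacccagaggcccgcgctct
OCLN: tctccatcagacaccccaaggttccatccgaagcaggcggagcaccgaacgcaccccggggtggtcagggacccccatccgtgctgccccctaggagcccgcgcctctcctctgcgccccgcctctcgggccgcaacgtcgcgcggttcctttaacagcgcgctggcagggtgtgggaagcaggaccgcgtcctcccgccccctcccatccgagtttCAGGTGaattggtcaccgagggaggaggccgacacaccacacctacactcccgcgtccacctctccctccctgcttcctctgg
ELF3: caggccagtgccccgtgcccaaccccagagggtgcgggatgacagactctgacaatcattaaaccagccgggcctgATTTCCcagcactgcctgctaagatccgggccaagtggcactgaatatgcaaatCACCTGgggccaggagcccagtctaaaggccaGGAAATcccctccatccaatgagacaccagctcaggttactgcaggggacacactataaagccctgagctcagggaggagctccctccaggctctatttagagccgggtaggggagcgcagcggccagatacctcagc
SPDEF: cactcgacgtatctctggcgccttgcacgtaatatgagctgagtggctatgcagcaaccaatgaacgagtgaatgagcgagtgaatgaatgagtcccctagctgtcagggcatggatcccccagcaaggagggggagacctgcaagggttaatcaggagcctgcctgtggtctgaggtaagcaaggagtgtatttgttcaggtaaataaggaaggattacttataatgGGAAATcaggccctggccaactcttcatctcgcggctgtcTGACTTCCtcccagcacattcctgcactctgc
SPINT1 and OCLN each have a second RefSeq window in the reference, not printed here. That of SPINT1 (chr15:40843798-40844097) holds no match to the searched motifs, and that of OCLN (chr5:69492540-69492839) holds E-boxes at -133 and 36. In the window printed, SPINT1 holds an E-box (CAGGTG or CACCTG) at -26 and an ETS-type match (GGAAGT or ACTTCC) at -72 from the start site. OCLN holds an E-box at -33 in its printed window. ELF3 holds an E-box at -120 and the other ETS-type motif (GGAAAT or ATTTCC) at -174 and -88. SPDEF holds the core element that TLX is known to bind (AAGTCA or TGACTT) at 19 after the start, overlapping a GGAAGT match at 21, and a GGAAAT match at -22.

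**Figure D1:**
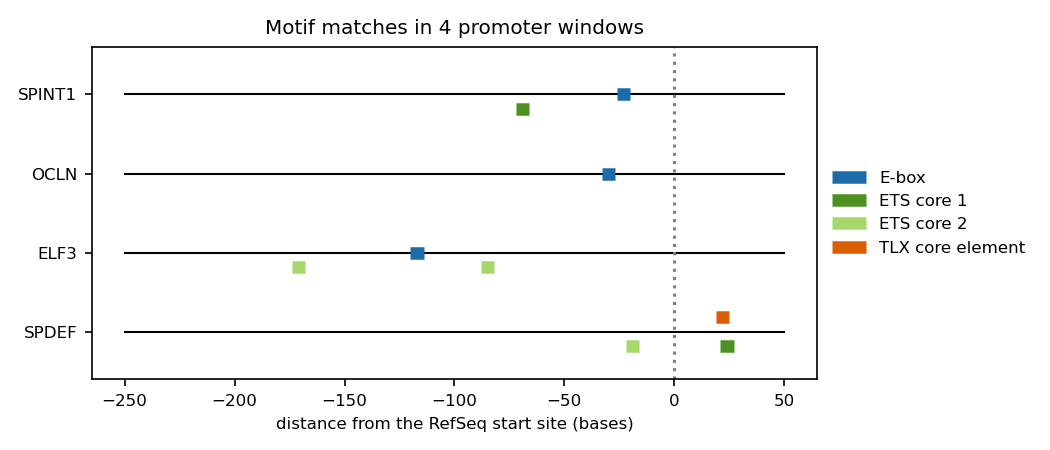
Motif matches in the promoter windows of SPINT1, OCLN, ELF3 and SPDEF, by distance in bases from the RefSeq start site (x axis, dotted line at 0). ETS core 1 is GGAAGT and ETS core 2 is GGAAAT. SPINT1, OCLN and ELF3 each have an E-box before the start site, and SPDEF has its AAGTCA element after it. The second windows of SPINT1 and OCLN are not drawn.

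Over the genes with a row, 18 had a RefSeq promoter in the reference and 21 did not, among them KRT81 and MAL2. An E-box was present for 10 of the 18 (55.6%), against 24.1% of the 27305 genes with a promoter. In TLX+siCTL against CTL+siCTL, ELF3, JUP, OCLN and SPINT1 of these 10 fell, and CLDN3, CLDN7, DSP, RAB25, TJP1 and TJP3 were not called. Of the genes with no E-box, CLDN1, KRT8, MARVELD2 and SPDEF fell, EHF rose, and CLDN4, CLDN12 and GRHL1 were not called. GGAAGT was present for 6 (33.3% against 26.6%) and GGAAAT for 2 (11.1% against 20.8%). The AAGTCA element was in 1 of the 18, SPDEF (5.56% against 15.0%). The Grainyhead motif AACNNGTT was in 0 of the 18, against 4.36% of all genes, and its special case AACCGGTT in 0, against 0.165%. These matches describe letters in short windows and show neither binding nor regulation.

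Not all of the epithelial program was present in these cells, which bears on the label of the group. Of the 39 genes, 28 had a mean of at least 1 log2 CPM over the 9 libraries and 11 lay below it. The simple keratins, desmoplakin, CLDN4, EHF and SPINT2 each averaged over 7 log2 CPM, whereas GRHL2, OVOL1, OVOL2, RAB25 and KRT14 held only a few reads per library. The set is therefore an epithelial gene list that the line expresses in part.

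**Figure D2:**
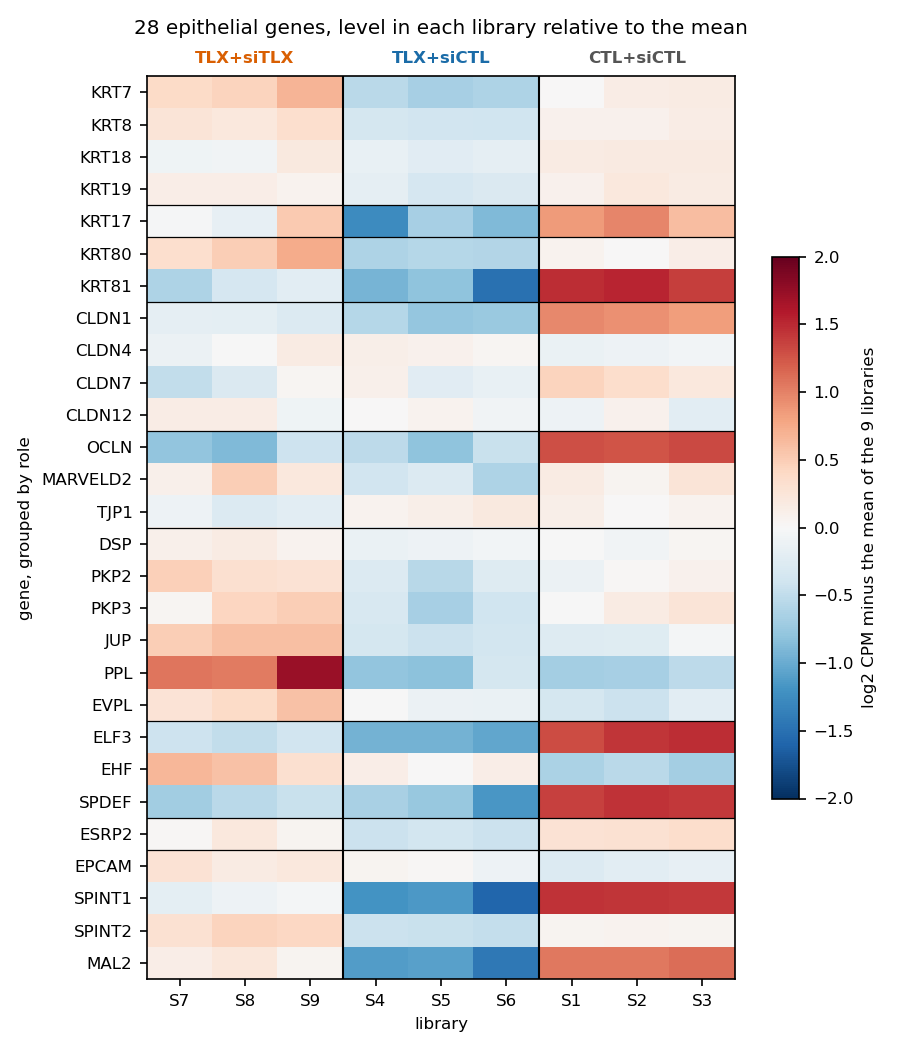
Log2 CPM minus the mean of the 9 libraries (colour) for the 28 epithelial genes with a mean of at least 1 (rows, grouped by role), with libraries in columns, TLX+siTLX, TLX+siCTL and CTL+siCTL from left to right. ELF3, SPDEF, OCLN, CLDN1, SPINT1, MAL2 and KRT81 are above their mean in the 3 CTL+siCTL libraries, and PPL is in the 3 TLX+siTLX libraries.

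Many of the 39 genes were lower in TLX+siCTL than in CTL+siCTL, and few were higher. By limma with Benjamini-Hochberg adjustment over all rows, 20 fell, 2 rose and 17 passed no test, beside 15.1% of all rows lower, 15.0% higher and 30.1% called. Among all rows with a mean of at least 1, the level at which most of these genes lie, 27.4% fell and 29.3% rose, 56.6% in all. Of the 28 genes of the set at that mean, 19 fell and 2 rose. The median log2 fold change of the 39 genes was -0.49, against 0.00 over all rows. With library medians centred 17 fell and 4 rose, and 64.9% of the calls over all rows were rises, in place of 49.9%. Largest were the differences of SPINT1, KRT81, ELF3, MAL2 and SPDEF, each below -2 on the log2 scale, and the 2 that rose were EHF and EPCAM. In such bulk samples fewer cells of a type and less RNA per cell cannot be told apart.

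After the siRNA against TLX, many genes of the set were higher than in TLX+siCTL. Of the 39 genes, 22 rose, 1 fell and 16 passed no test, beside 12.7% of all rows higher, 10.9% lower and 23.7% called. Among all rows with a mean of at least 1, 23.8% rose and 22.0% fell, 45.8% in all. Of the 28 genes of the set at that mean, 21 rose and 1 fell. The median over the 39 genes was 0.43, against 0.00 over all rows. With library medians centred 20 rose and 3 fell, and 29.9% of the calls over all rows were rises, in place of 53.8%. PPL, MAL2, SPINT1, KRT80 and KRT7 rose by 1.11 to 1.94 on the log2 scale, and the gene that fell was TJP1. This comparison uses the same TLX+siCTL libraries as the one before, so the pair of results is not independent.

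Set against CTL+siCTL, TLX+siTLX cells were mixed. Of the 39 genes, 12 rose, 14 fell and 13 passed no test, beside 17.7% of all rows higher, 17.0% lower and 34.6% called. Among all rows with a mean of at least 1, 32.4% rose and 31.2% fell, 63.6% in all. Of the 28 genes of the set at that mean, 11 rose and 11 fell. The median was -0.14, against 0.00 over all rows. Of 6 desmosome and envelope genes 5 rose, and of 5 claudins 3 fell. This comparison shares its libraries with the other 2.

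**Figure D3:**
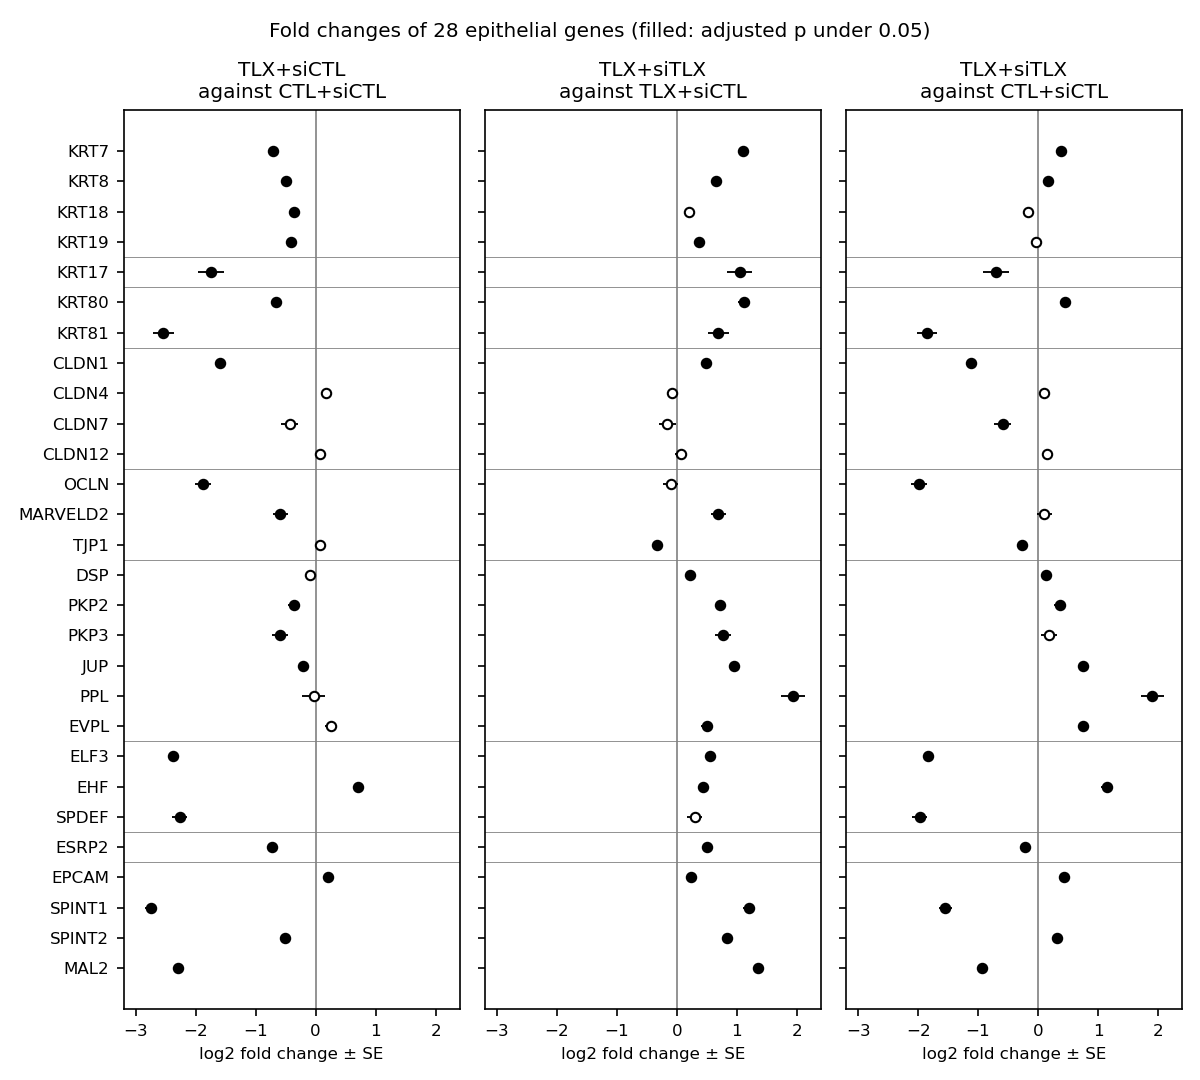
Log2 fold change ± SE (x axis) of the 28 epithelial genes with a mean of at least 1 log2 CPM (y axis, by role) in each comparison, with filled points for adjusted p under 0.05. SPINT1, KRT81, ELF3, MAL2 and SPDEF lie below -2 in TLX+siCTL against CTL+siCTL, and PPL lies furthest right in TLX+siTLX against TLX+siCTL and against CTL+siCTL, at 1.94 and 1.90.

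All 4 simple keratins fell in TLX+siCTL against CTL+siCTL, and 3 of the 4 rose in TLX+siTLX against TLX+siCTL. Over all rows 15.1% fell in the first comparison and 12.7% rose in the second. Among rows with a mean of at least 1 these shares were 27.4% and 23.8%. KRT7, a keratin of simple glandular epithelium (chromosome 12, 52232520 to 52252186, GRCh38), had 8.71, 8.77 and 9.01 log2 CPM in TLX+siTLX, 7.79, 7.66 and 7.71 in TLX+siCTL, and 8.34, 8.48 and 8.49 in CTL+siCTL. Every TLX+siTLX library was above every CTL+siCTL library, and every TLX+siCTL library was below both. Its log2 fold change was -0.72 ± 0.08 (SE, adjusted p = 0.000152) in TLX+siCTL against CTL+siCTL and 1.11 ± 0.08 (adjusted p = 2.92e-05) in TLX+siTLX against TLX+siCTL. In TLX+siTLX against CTL+siCTL it was 0.39 ± 0.08 (adjusted p = 0.00432). KRT8, the type II partner of KRT18, moved in the same directions, by -0.49 ± 0.04, 0.65 ± 0.04 and 0.17 ± 0.04 in that order of comparisons, the last lost without the intensity trend and without S1 or S2. KRT19, the smallest keratin, fell by 0.42 ± 0.05 with TLX and rose by 0.38 ± 0.05 after the siRNA, and its TLX+siTLX and CTL+siCTL libraries overlapped (-0.04 ± 0.05, adjusted p = 0.582). KRT18 fell by 0.36 ± 0.07 with TLX, while after the siRNA it stood at 0.19 ± 0.07 (adjusted p = 0.0772). Of its 31-base words, 46.1% also occur in transcripts of other genes, as do 25.4% of those of KRT8 and 30.1% of those of KRT17, so reads of these keratins may be split with pseudogenes.

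Of the 3 keratins of basal or stressed epithelium with a row, KRT17 and KRT15 fell with TLX and KRT14 was not called, and both KRT80 and KRT81 fell. In this comparison 15.1% of all rows fell, and 27.4% of rows with a mean of at least 1. KRT15 and KRT14 lie below that mean. KRT17, a keratin of basal and wounded epithelium (chromosome 17, 41619441 to 41624842), had 1.73, 1.59 and 2.28 log2 CPM in TLX+siTLX, 0.50, 1.09 and 0.87 in TLX+siCTL, and 2.60, 2.73 and 2.37 in CTL+siCTL. The 3 groups did not overlap, with TLX+siCTL lowest and CTL+siCTL highest. Fold changes of KRT17 were -1.75 ± 0.21 (adjusted p = 0.000272) for TLX+siCTL against CTL+siCTL, 1.05 ± 0.21 (adjusted p = 0.00721) for TLX+siTLX against TLX+siCTL, and -0.70 ± 0.21 (adjusted p = 0.0317) for TLX+siTLX against CTL+siCTL. The last call was lost with only the groups compared and without S1, S2, S3, S6, S7 or S8, with an adjusted p of up to 0.127. KRT80, a type II epithelial keratin (chromosome 12, 52168996 to 52192000), had 7.15, 7.30 and 7.55 log2 CPM in TLX+siTLX, 6.20, 6.24 and 6.22 in TLX+siCTL, and 6.87, 6.81 and 6.94 in CTL+siCTL. Here TLX+siTLX was highest and TLX+siCTL lowest, again without overlap. KRT80 fell by 0.66 ± 0.09 (adjusted p = 0.000472) with TLX and rose by 1.11 ± 0.09 (adjusted p = 4.7e-05) after the siRNA. It was 0.46 ± 0.09 (adjusted p = 0.00318) higher in TLX+siTLX than in CTL+siCTL.

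KRT81, a hair keratin also known from breast cancer lines (chromosome 12, 52285913 to 52291534), had 5.71, 5.99 and 6.12 log2 CPM in TLX+siTLX, 5.40, 5.52 and 4.82 in TLX+siCTL, and 7.80, 7.85 and 7.71 in CTL+siCTL. All libraries of CTL+siCTL stood far above the rest, and the TLX+siTLX libraries lay above those of TLX+siCTL by a small gap. Its changes were -2.54 ± 0.17 (adjusted p = 9.61e-06) with TLX, 0.69 ± 0.17 (adjusted p = 0.019) after the siRNA and -1.85 ± 0.17 (adjusted p = 3.91e-05) in TLX+siTLX against CTL+siCTL. The middle call was lost with only the libraries of the groups compared and without S1, S8 or S9, with an adjusted p of up to 0.106. Of the 31-base words of KRT81, 52.4% occur in other genes, most in its neighbour KRT86, so KRT81 and KRT86 cannot be cleanly separated. KRT15, a basal keratin at 0.16 to 1.07 log2 CPM, fell by 0.64 ± 0.17 in both comparisons with CTL+siCTL and stood at -0.00 ± 0.17 after the siRNA. The fall with TLX was lost with library medians centred and without S2 or S5. KRT14, the basal partner of KRT5, held about 6.84 estimated reads over the TLX+siTLX libraries, 0 over TLX+siCTL and 0.71 over CTL+siCTL. It counts among the genes called higher in both comparisons of TLX+siTLX, on those few reads, and no fold is given.

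**Figure D4:**
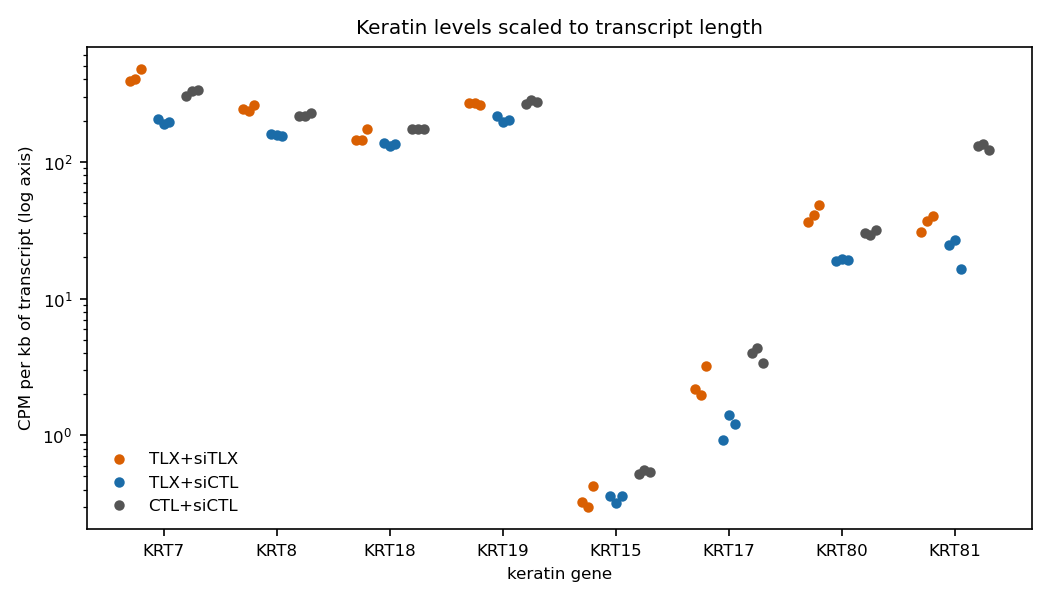
Keratin levels as CPM per kilobase of transcript on a log axis, for 8 keratin genes (x axis). Points are libraries, coloured by group in the order TLX+siTLX, TLX+siCTL and CTL+siCTL, and within each group KRT7, KRT8, KRT18 and KRT19 lie above KRT80, KRT81, KRT17 and KRT15.

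Scaled to transcript length, KRT7 stood at 424 ± 47.4 CPM per kilobase in TLX+siTLX, 196 ± 8.85 in TLX+siCTL and 322 ± 18.2 in CTL+siCTL (SD, n = 3 each). KRT19 averaged 266 ± 5.86, 205 ± 11.5 and 273 ± 10.5 CPM per kilobase in the same groups. In TLX+siCTL the gap between KRT19 and KRT7 was smaller than the SD of KRT19 and slightly larger than that of KRT7. KRT8 and KRT18 followed at 135 to 247 CPM per kilobase as group means, and KRT17 averaged 1.18 to 3.92. KRT81 averaged 129 CPM per kilobase in CTL+siCTL, above KRT80 at 30.3, while in TLX+siTLX the order was KRT80 at 41.8 and then KRT81 at 35.9. These levels use the median length of the coding transcripts of each gene. With the longest transcript KRT7 stands at 260 CPM per kilobase in TLX+siTLX, below KRT19, so the order of the top keratins depends on that length.

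Claudins are the sealing proteins of the tight junction. Of 5, 1 fell and 0 rose in TLX+siCTL against CTL+siCTL, where 15.1% of all rows fell, so the count is near the background. In TLX+siTLX against TLX+siCTL 1 rose and 0 fell, beside 12.7% of all rows higher, and in TLX+siTLX against CTL+siCTL 3 fell and 0 rose, beside 17.0% of all rows lower. Of the 4 claudins with a mean of at least 1, 2 fell in the last comparison, beside 31.2% of rows at that mean. CLDN1, a claudin of skin and glandular epithelium (chromosome 3, 190305701 to 190322475), had 5.41, 5.39 and 5.31 log2 CPM in TLX+siTLX, 5.01, 4.81 and 4.85 in TLX+siCTL, and 6.55, 6.50 and 6.42 in CTL+siCTL. The groups were separate, with both TLX groups more than 1 below the controls on the log2 scale. CLDN1 fell by 1.60 ± 0.06 (adjusted p = 6.31e-07) with TLX, rose by 0.48 ± 0.06 (adjusted p = 0.000503) after the siRNA, and remained 1.12 ± 0.06 lower (log2 fold change -1.12, adjusted p = 1.51e-06) in TLX+siTLX than in CTL+siCTL. CLDN4, a claudin of many simple epithelia, spanned 6.94 to 7.23 over the 9 libraries, and CLDN12 spanned 6.03 to 6.39. Neither passed the test in any comparison. CLDN7 and CLDN3 were called in TLX+siTLX against CTL+siCTL alone, at -0.59 ± 0.14 and -0.92 ± 0.22, and CLDN7 stood at -0.43 ± 0.14 (adjusted p = 0.0508) with TLX. The CLDN7 call was lost without S1, and CLDN7 is listed on 2 rows with the same values.

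Of 4 genes of the occludin family and the junctional scaffolds, 2 fell with TLX, and after the siRNA 1 rose and 1 fell. Over all rows 30.1% and 23.7% were called in these comparisons. Among rows with a mean of at least 1 the shares were 56.6% and 45.8%. Of the 3 genes here at that mean, 2 fell with TLX, and after the siRNA 1 rose and 1 fell. These are too few genes to set apart from such rows. OCLN, a transmembrane protein of the tight junction (chromosome 5, 69492292 to 69558104), had 3.38, 3.27 and 3.75 log2 CPM in TLX+siTLX, 3.64, 3.36 and 3.71 in TLX+siCTL, and 5.45, 5.43 and 5.48 in CTL+siCTL. The libraries of both TLX groups overlapped and all lay below every CTL+siCTL library. OCLN fell by 1.88 ± 0.13 (adjusted p = 9.82e-06) with TLX, stood at -0.11 ± 0.13 (adjusted p = 0.634) after the siRNA, and was at -1.98 ± 0.13 (adjusted p = 4.47e-06) in TLX+siTLX against CTL+siCTL. A second row of OCLN, outside the primary annotation, gave -1.82 ± 0.11 for TLX+siCTL against CTL+siCTL. MARVELD2, tricellulin of the corners where 3 cells meet, fell by 0.59 ± 0.12 with TLX and rose by 0.69 ± 0.12 after the siRNA, and neither passed on its second row (-0.71 and 0.24). TJP1, the ZO-1 scaffold, fell by 0.33 ± 0.05 after the siRNA on the row used, which is outside the primary annotation. Its row in that annotation stood at 0.04 (adjusted p = 0.826), so the fall rests on 1 of its rows. TJP3, the ZO-3 scaffold, spanned -0.49 to 1.12 log2 CPM and was called in no comparison.

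Desmosome and envelope genes were higher after the siRNA in all 6 cases, with a median log2 fold change of 0.75. Over all rows 12.7% were higher, and among rows with a mean of at least 1 the share was 23.8%. PPL, periplakin of the desmosome and cornified envelope (chromosome 16, 4882507 to 4960741), had 4.68, 4.66 and 5.35 log2 CPM in TLX+siTLX, 2.82, 2.80 and 3.27 in TLX+siCTL, and 2.93, 2.96 and 3.10 in CTL+siCTL. Only the TLX+siTLX libraries stood apart, and those of TLX+siCTL and CTL+siCTL overlapped. PPL stood at -0.03 ± 0.19 (adjusted p = 0.967) with TLX, rose by 1.94 ± 0.19 (adjusted p = 0.000161) after the siRNA and was 1.90 ± 0.19 (adjusted p = 6.74e-05) higher in TLX+siTLX than in CTL+siCTL. S9 was the highest library of TLX+siTLX and S6 that of TLX+siCTL.

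JUP, plakoglobin, which links desmosomal cadherins to the filament anchor, rose by 0.95 ± 0.06 (adjusted p = 2.11e-05) after the siRNA and was 0.74 ± 0.06 higher in TLX+siTLX than in CTL+siCTL. Its fall with TLX was small (-0.20 ± 0.06, adjusted p = 0.0387) and was lost under 11 of the 15 other settings. The plakophilins PKP2 and PKP3, armadillo proteins of the desmosomal plaque, fell by 0.36 ± 0.09 and 0.59 ± 0.14 with TLX, and rose by 0.72 ± 0.09 and 0.78 ± 0.14 after the siRNA. PKP2 was at 0.36 ± 0.09 in TLX+siTLX against CTL+siCTL, a call lost without S1 or S7. The fall of PKP2 with TLX was lost with library medians centred, with only the groups compared, and without S2 or S3, and that of PKP3 without S3 or S5. EVPL, envoplakin, the partner of periplakin, rose by 0.50 ± 0.09 after the siRNA and stood at 0.25 ± 0.09 (adjusted p = 0.0685) with TLX. DSP, desmoplakin, spanned 7.80 to 8.10 log2 CPM and rose by 0.22 ± 0.04 after the siRNA, a call that was lost with library medians centred. Its 0.13 ± 0.04 in TLX+siTLX against CTL+siCTL was lost under 10 of the 15 other settings.

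The 3 epithelial ETS factors differed in direction with TLX. ELF3, a factor of simple and transitional epithelium (chromosome 1, 202007945 to 202017188), had 3.52, 3.44 and 3.56 log2 CPM in TLX+siTLX, 2.98, 2.99 and 2.90 in TLX+siCTL, and 5.24, 5.37 and 5.41 in CTL+siCTL. Replicates lay close together, and the groups were widely separate. ELF3 fell by 2.38 ± 0.06 (adjusted p = 1.96e-07) with TLX, rose by 0.55 ± 0.06 (adjusted p = 0.000253) after the siRNA and was at -1.83 ± 0.06 (adjusted p = 1.48e-07) in TLX+siTLX against CTL+siCTL. SPDEF, a factor of secretory epithelium (chromosome 6, 34537802 to 34556333), had 3.35, 3.50 and 3.60 log2 CPM in TLX+siTLX, 3.40, 3.29 and 2.88 in TLX+siCTL, and 5.41, 5.49 and 5.46 in CTL+siCTL. As with OCLN, both TLX groups overlapped and lay below all controls. It fell by 2.27 ± 0.13 (adjusted p = 3.59e-06) with TLX, stood at 0.30 ± 0.13 (adjusted p = 0.14) after the siRNA and was at -1.97 ± 0.13 (adjusted p = 4.11e-06) in TLX+siTLX against CTL+siCTL. SPDEF is the gene whose window above holds the AAGTCA element.

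EHF ran the other way. This ETS factor of differentiated epithelium (chromosome 11, 34621093 to 34661057) had 8.01, 7.93 and 7.65 log2 CPM in TLX+siTLX, 7.47, 7.35 and 7.47 in TLX+siCTL, and 6.70, 6.80 and 6.66 in CTL+siCTL. No groups overlapped, and the controls were lowest. EHF rose by 0.71 ± 0.09 (adjusted p = 0.000284) with TLX, by a further 0.43 ± 0.09 (adjusted p = 0.00681) after the siRNA, and by 1.14 ± 0.09 (adjusted p = 1.2e-05) in TLX+siTLX against CTL+siCTL.

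The remaining identity factors were low. GRHL1, a Grainyhead factor, spanned 0.31 to 1.22 log2 CPM and passed no test. GRHL2, the Grainyhead factor most associated with epithelial junction genes, held about 5.49 estimated reads over the TLX+siTLX libraries, 7.89 over TLX+siCTL and 6.58 over CTL+siCTL. OVOL1, a zinc finger repressor, held 0.815, 6.78 and 17.4 reads in the same groups and was called lower in TLX+siTLX against CTL+siCTL, on counts too low for a fold. OVOL2 held 0, 0 and 3.19 reads and passed no test. At these depths differences in GRHL2 and OVOL2 were not detectable. Of the splicing regulators that set epithelial isoforms, ESRP2 fell by 0.72 ± 0.07 (adjusted p = 7.44e-05) with TLX and rose by 0.50 ± 0.07 (adjusted p = 0.00106) after the siRNA. ESRP2 was at -0.22 ± 0.07 (adjusted p = 0.0395) in TLX+siTLX against CTL+siCTL, a call lost on the log2(CPM + 1) scale, with only the groups compared, and without S1, S2, S3, S7 or S9. ESRP1 spanned -2.53 to -0.24 log2 CPM with no call.

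Among surface, protease and trafficking genes, the pair of Kunitz-type inhibitors and MAL2 fell with TLX and rose after the siRNA. SPINT1, also called HAI-1, inhibits the membrane protease matriptase (chromosome 15, 40844018 to 40858207). It had 4.07, 4.15 and 4.22 log2 CPM in TLX+siTLX, 3.06, 3.11 and 2.67 in TLX+siCTL, and 5.71, 5.70 and 5.67 in CTL+siCTL. The groups were separate, and TLX+siTLX lay between the other 2. SPINT1 fell by 2.74 ± 0.11 (adjusted p = 7.31e-07) with TLX, which is 6.70-fold lower, rose by 1.20 ± 0.11 (adjusted p = 8.68e-05) after the siRNA and was at -1.54 ± 0.11 (adjusted p = 6.55e-06) in TLX+siTLX against CTL+siCTL. SPINT2, or HAI-2, a related inhibitor, fell by 0.51 ± 0.04 with TLX, rose by 0.84 ± 0.04 (adjusted p = 5.74e-06) after the siRNA and was 0.32 ± 0.04 above the controls. ST14, which encodes matriptase itself, spanned 0.33 to 1.27 log2 CPM and passed no test.

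MAL2, a transmembrane protein of transcytosis to the apical side (chromosome 8, 119165034 to 119245673), had 6.52, 6.62 and 6.45 log2 CPM in TLX+siTLX, 5.27, 5.30 and 4.97 in TLX+siCTL, and 7.45, 7.45 and 7.51 in CTL+siCTL. The order of the groups was that of SPINT1, without overlap. MAL2 fell by 2.29 ± 0.09 (adjusted p = 6.31e-07) with TLX, rose by 1.35 ± 0.09 (adjusted p = 1.53e-05) after the siRNA and was at -0.94 ± 0.09 (adjusted p = 3.33e-05) in TLX+siTLX against CTL+siCTL. EPCAM, the epithelial cell adhesion molecule, rose by 0.21 ± 0.06 (adjusted p = 0.0302) with TLX, 0.23 ± 0.06 (adjusted p = 0.0234) after the siRNA and 0.44 ± 0.06 (adjusted p = 0.00044) in TLX+siTLX against CTL+siCTL. The first of these calls was lost without the intensity trend and without S1, S2, S4 or S5. The second was lost with library medians centred, with quantile normalization, with only the groups compared, without the intensity trend, and without S5, S6 or S7. RAB25, an epithelial recycling GTPase, held 2.96, 0 and 1.95 estimated reads over the TLX+siTLX, TLX+siCTL and CTL+siCTL libraries and passed no test.

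**Figure D5:**
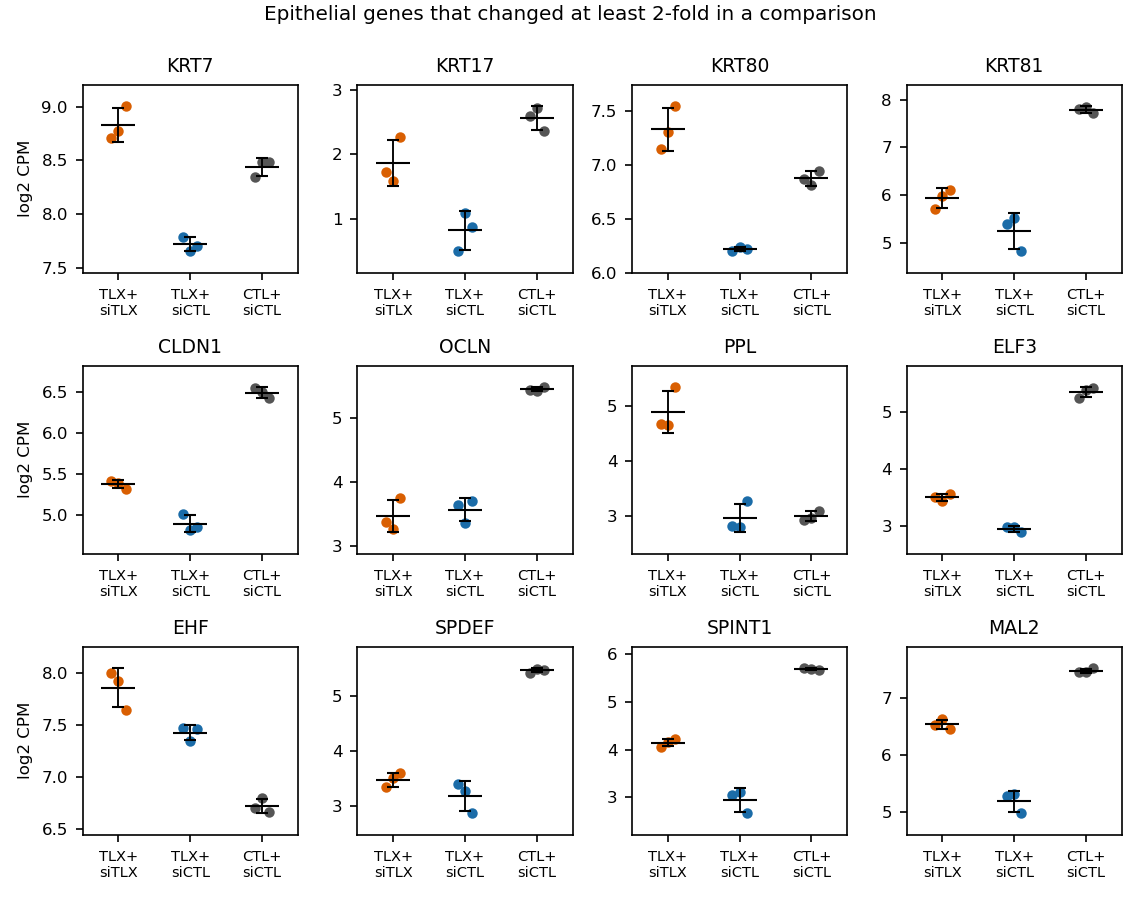
Log2 CPM (y axis) of the 12 epithelial genes that changed at least 2-fold in a comparison, in TLX+siTLX, TLX+siCTL and CTL+siCTL from left to right, with points for libraries and bars for mean ± SD (n = 3). TLX+siCTL is lowest for KRT7, KRT17, KRT80, KRT81, CLDN1, ELF3, SPINT1 and MAL2, PPL is high in TLX+siTLX alone, and EHF is lowest in CTL+siCTL.

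Other genes of the same structures were counted from lists outside the 41. Over all rows, 15.1% fell and 15.0% rose in TLX+siCTL against CTL+siCTL, 10.9% fell and 12.7% rose in TLX+siTLX against TLX+siCTL, and 17.0% fell and 17.7% rose in TLX+siTLX against CTL+siCTL, and these shares are the background of the counts that follow. Of 25 further genes of epithelial identity, 9 fell and 3 rose in TLX+siCTL against CTL+siCTL (median -0.52), 1 fell and 9 rose in TLX+siTLX against TLX+siCTL (0.33), and 8 fell and 5 rose in TLX+siTLX against CTL+siCTL (-0.25). The mucin-like CD24 fell by 3.40 ± 0.20 with TLX and rose by 0.85 ± 0.20 after the siRNA, and the mucin MUC1 fell by 1.77 ± 0.10 and rose by 1.13 ± 0.10. GATA3, a luminal transcription factor, rose by 0.93 ± 0.13 in each of these comparisons. CDH1, E-cadherin, named after its values were seen and below a mean of 1, had 1.68, 1.14 and 1.40 log2 CPM in TLX+siTLX, -1.22, -0.94 and -0.84 in TLX+siCTL, and 1.78, 1.65 and 2.65 in CTL+siCTL. It fell by 3.03 ± 0.27 with TLX and rose by 2.41 ± 0.27 after the siRNA.

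Of 27 further tight junction genes, 5 rose and 4 fell in TLX+siCTL against CTL+siCTL, beside 30.1% of all rows called in either direction, so the count is near the background. In TLX+siTLX against TLX+siCTL 7 rose and 3 fell, beside 23.7% of all rows called, and in TLX+siTLX against CTL+siCTL 8 rose and 4 fell, beside 34.6%. F11R, the junctional adhesion molecule JAM-A, fell by 1.26 ± 0.06 with TLX and rose by 0.54 ± 0.06 after the siRNA. AMOTL2, an angiomotin, rose by 0.70 ± 0.05 and 0.48 ± 0.05, and the cingulin-like CGNL1 rose by 0.91 ± 0.15 after the siRNA. Of 15 further desmosome and hemidesmosome genes, 4 rose and 5 fell with TLX, 7 rose and 2 fell after the siRNA, and 5 rose and 3 fell in TLX+siTLX against CTL+siCTL. The desmosomal cadherin DSC2 fell by 2.56 ± 0.06 with TLX and rose by 0.96 ± 0.06 after the siRNA. COL17A1, the hemidesmosomal collagen, rose by 1.79 ± 0.14 and 0.99 ± 0.14, and KLHL24, which promotes keratin turnover in skin, fell by 1.13 ± 0.10 after the siRNA. Of 12 further keratins, most of them near the lowest value, 0 rose in any comparison and 2, 1 and 3 fell, including KRT86 (-1.61 ± 0.14 with TLX) and KRT10 (-0.15 ± 0.04).

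Of 10 mesenchymal markers, 6 fell and 2 rose in TLX+siCTL against CTL+siCTL (median -0.72), beside 15.1% of all rows lower and 15.0% higher, or 27.4% and 29.3% of rows with a mean of at least 1. In TLX+siTLX against TLX+siCTL 8 rose and 0 fell (median 1.24), beside 12.7% of all rows higher and 10.9% lower, or 23.8% and 22.0% at that mean. In TLX+siTLX against CTL+siCTL 4 rose and 1 fell, beside 17.7% of all rows higher and 17.0% lower, or 32.4% and 31.2% at that mean. Of the 7 markers at that mean, 6 fell and 1 rose in the first comparison. In the second 7 rose and 0 fell, and in the third 3 rose and 1 fell. Fibronectin FN1 fell by 2.02 ± 0.06 with TLX and rose by 1.12 ± 0.06 after the siRNA, CDH11, a mesenchymal cadherin, by 1.88 ± 0.12 and 1.62 ± 0.12, and the collagen COL5A1 by 0.79 ± 0.06 and 1.88 ± 0.06. Their summed level was 3774 to 4222 CPM in TLX+siTLX, 2462 to 2540 in TLX+siCTL and 3253 to 3308 in CTL+siCTL. The part of this difference in the changes of the epithelial genes was not tested.

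Of 8 repressors of the epithelial state, 1 rose and 3 fell with TLX, 1 rose and 0 fell after the siRNA, and 1 rose and 3 fell in TLX+siTLX against CTL+siCTL. A single rise among 8 is near the 15.0%, 12.7% and 17.7% of all rows that rose in these comparisons. The 3 falls stand beside 15.1% of all rows lower with TLX and 17.0% in TLX+siTLX against CTL+siCTL. Only 3 of the 8 had a mean of at least 1. Of these 3, 2 fell and 1 rose in each comparison with CTL+siCTL. Among rows at that mean 27.4% fell with TLX and 31.2% in TLX+siTLX against CTL+siCTL. SNAI2 rose by 1.34 ± 0.04 and 0.79 ± 0.04, ZEB2 fell by 1.04 ± 0.06 with TLX and stood at 0.07 ± 0.06 after the siRNA, and ZEB1 fell by 0.38 ± 0.12 with TLX. Of 11 luminal breast markers, 6 fell and 2 rose with TLX, 1 fell and 3 rose after the siRNA, and 5 fell and 2 rose in TLX+siTLX against CTL+siCTL, with AGR2 at -2.14 ± 0.13 and MLPH at -1.11 ± 0.07 in the first of these. Their summed level was 463 to 506 CPM in TLX+siTLX, 449 to 496 in TLX+siCTL and 928 to 989 in CTL+siCTL. Of 8 prostate markers, 1 fell with TLX and 1 rose after the siRNA, of 4 haematopoietic ones 1 fell with TLX and 1 rose in each comparison of TLX+siTLX, and of 4 endothelial ones 0 were called in any comparison. Over all rows 30.1%, 23.7% and 34.6% were called in these comparisons, so the counts of the prostate, haematopoietic and endothelial lists are at or below the background or rest on 1 gene, while the luminal counts stand beside 15.1%, 10.9% and 17.0% of all rows lower. Of the 5 luminal markers with a mean of at least 1, 3 fell and 2 rose in each comparison with CTL+siCTL. After the siRNA 2 of these 5 rose and 0 fell. Among rows at that mean 27.4%, 22.0% and 31.2% fell in the 3 comparisons. SLC45A3, a prostate transporter, fell by 0.28 ± 0.07, and CD68, a lysosomal macrophage marker, fell by 0.71 ± 0.05 with TLX and rose by 0.86 ± 0.05 after the siRNA.

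In the authors' deposited table, at a false discovery rate under 0.05, 2 of the 39 genes were higher and 21 lower in TLX+siCTL against CTL+siCTL, adding CLDN7. For TLX+siTLX against TLX+siCTL the authors' deposited table had 23 higher, adding KRT18, and 1 lower. For TLX+siTLX against CTL+siCTL it had 12 higher and 13 lower, without ESRP2.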

How the data were processed

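The 9 RNA libraries were made with Illumina's stranded TruSeq kit according to the labels' protocols, and the submitters' processing notes name kallisto 0.44.0, limma, edgeR and GRCh38, with no role or order. The authors deposited log2 CPM values for 27548 rows, whose lowest value is what a prior count of 2 gives for 0 reads, so fold changes of low genes are understated. The authors' deposited comparison table holds a signed fold change (a score here), a p-value and a false discovery rate, and their test is not stated in the sources used here. Columns name a group and a running number, S1 to S9, which is in no label, and 0 columns were unmapped.

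Reads rebuilt from the steps between low values were not whole (31.4% to 33.2% of values under 50 reads lay within 0.01 of a whole number), so they are estimates and no count test was run. The deposited log2 values of all libraries entered 1 limma fit (version 3.58.1, R 4.3.3) moderated along an intensity trend, and two-sided p-values were adjusted by Benjamini-Hochberg over 27548 rows, with 0.05 as threshold. "With TLX" means TLX+siCTL against CTL+siCTL, and "after the siRNA" means TLX+siTLX against TLX+siCTL. The fit was also run on simulated data. That simulation changed far fewer rows than were called here and used independent noise, so it does not vouch for these calls. Positions and transcript lengths come from GENCODE 29, in which 24790 identifiers were found, and promoters from RefSeq (GRCh38.p14). Whether reads were counted by strand is not stated in the sources used here, so overlapping genes such as KRT8 and KRT18 are uncertain.

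Values of every library are given for genes whose mean log2 CPM reached 1 and that changed by at least 1 on the log2 scale in any comparison, and up to 3 called genes at that mean are named from each other list. The members and lists were chosen with earlier results of these data known. Alternatives were library medians centred, quantile normalization, a minimum mean log2 CPM of 1, log2(CPM + 1), only the groups compared, no intensity trend, and each library left out.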

Additional observations from a re-analysis of the deposited data

How the results depend on the processing

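Of 71 called values of the epithelial genes, 57 kept their direction and call under every alternative setting they entered, of 15, while 14 lost the call under at least 1, and 0 reversed. The 14 were KRT15, PKP2, PKP3, JUP and EPCAM in TLX+siCTL against CTL+siCTL, KRT81, DSP and EPCAM in TLX+siTLX against TLX+siCTL, and KRT8, KRT17, CLDN7, DSP, PKP2 and ESRP2 in TLX+siTLX against CTL+siCTL. In TLX+siCTL against CTL+siCTL the genes that were higher numbered 4 with library medians centred, 4 among rows whose mean log2 CPM reached 1 and 1 without the intensity trend, against 2 as reported. With each library left out they numbered 1 to 4, with 1 without S1, S2, S4 or S5 and 4 without S9. The genes lower in TLX+siTLX than in TLX+siCTL numbered 3 with medians centred and 2 with quantile normalization, against 1, and 1 to 2 with each library left out, with 2 without S4. Centring moved all fold changes by a median of 0.12, -0.14 and -0.03 in TLX+siCTL against CTL+siCTL, TLX+siTLX against TLX+siCTL and TLX+siTLX against CTL+siCTL. With it 2253 rows were higher and 5273 lower in TLX+siTLX against TLX+siCTL, in place of 3507 and 3011, so that 29.9% of the calls were rises (53.8% as reported), and in TLX+siCTL against CTL+siCTL 64.9% were rises (49.9% as reported). No paired analysis was possible because the replicate numbers of the titles cannot be tied to the table's columns. Fold changes of KRT14, GRHL2, OVOL1, OVOL2 and RAB25 are limited by depth.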

Other observations

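TP63, the basal epithelial transcription factor, lay below a mean of 1 log2 CPM and was named after its values were seen. It had 0.84, 0.81 and 1.10 log2 CPM in TLX+siTLX, -0.50, -2.10 and -1.81 in TLX+siCTL, and -3.30, -3.15 and -3.01 in CTL+siCTL. The groups did not overlap. By limma it rose by 1.68 ± 0.40 (SE, adjusted p = 0.0115) in TLX+siCTL against CTL+siCTL, by 2.39 ± 0.40 (adjusted p = 0.00262) in TLX+siTLX against TLX+siCTL, and by 4.07 ± 0.40 (adjusted p = 5.38e-05) in TLX+siTLX against CTL+siCTL.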
